A study of Mus musculus with 719 samples.

Results

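In the developing mouse retina, ON-OFF direction-selective ganglion cells at postnatal day (P) 8 were compared with cells of the same line at P4 and P5. The cells were chosen by their labels, as every cell of the HB9-GFP line labelled as preferring downward motion and taken at P4, P5 or P8: 40 cells at P4, 38 at P5 and 36 at P8, which is 114 of the 719 cells of the series. Each cell gave 1 library by Smart-seq2, which reads polyA transcripts over their full length and marks no molecules. Cells that carried the retrograde dye CTB-Alexa 647 were sorted by GFP, and CD11b-positive and dead cells were gated out. All 3 groups carried the same transgene and received no other treatment that the labels name, so age was the only labelled difference. For the ON comparison, 93 cells labelled up and 94 labelled down, from Spig1-GFP retinas at the same ages, were used. The test of each gene also took ON-OFF cells at P10, P12 and P14 (123 cells) and ON cells at P10 and P12, for its estimate of spread only. The labels do not name the mouse each cell came from. The cells of 1 age were therefore averaged into 1 pool, and a gene's level is the mean over the pool of its share of each cell's normalized fragments, scaled to the same total in every cell (CPM).

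ON-OFF direction-selective ganglion cells fire to motion in 1 preferred direction, at the onset and at the offset of light. Their selectivity rests on asymmetric inhibition from starburst amacrine cells, which release GABA and acetylcholine onto them. In the mouse, the days around the end of the first postnatal week precede eye opening: ganglion cell axons have reached the brain, dendrites are finding their layers, retinal waves driven by acetylcholine sweep the retina, and the starburst inputs become asymmetric.

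The 114 libraries held between 392785 and 1566130 fragments per cell (median 877301), and the pool medians lay close together, at 883883 (P4), 855490 (P5) and 893947 (P8). The cells expressed general ganglion cell genes. Thy1 was at or above 10 CPM in 100% of cells at each age, and Slc17a6, the vesicular glutamate transporter of ganglion cells, in 97.5% at P4, 94.7% at P5 and 97.2% at P8. Calb2 (calretinin) reached 10 CPM in 95%, 94.7% and 94.4% of cells, and Cartpt, a peptide gene used as a marker of ON-OFF cells, in 42.5%, 31.6% and 52.8%. Mnx1, the gene whose regulatory sequence gives the HB9-GFP line its name, was low, at 5.05, 4.32 and 5.94 CPM. Chat, of starburst amacrine cells, and Arr3, Gnat2, Grm6 and Sox10, of cones, bipolar cells and oligodendrocytes, were at 0 in all 3 pools. Other members of those marker lists were not: the amacrine list summed to 758, 911 and 683 CPM in the pools at P4, P5 and P8, and the bipolar list to 971, 1133 and 957 CPM. Rod markers without Gnb1 (14 genes summed) had a cell median of at most 1.48 CPM, but single cells reached 186 CPM at P4, 2449 at P5 and 1584 at P8. Microglia markers summed over 15 genes had cell medians of 7.8, 20.2 and 14.2 CPM, with the highest cell at 23199.6 CPM at P4, 2263 at P5 and 27788 at P8. By a rule of at least 3 marker genes at 50 CPM, 1 cell at P4, 6 at P5 and 3 at P8 carried markers of another type, all of rods or microglia. A pool mean alone cannot tell fewer expressing cells from less RNA per cell, so shares of cells are given beside it.

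The main question was which genes stood at a different level at P8 than at both earlier ages. limma was fitted across the 11470 genes that averaged 5 CPM or more over the early mean and P8, on log2(CPM + 5), a scale that understates the change of low genes. In that fit 2 genes passed a Benjamini-Hochberg adjusted p of 0.05 with the same sign against both ages, both of them higher (0.0174% of the genes tested), and 0 passed in the lower direction. At an unadjusted p under 0.05, 299 genes were higher (2.61%) and 395 lower (3.44%). At P8 there was only 1 pool, so its error was taken from the spread among the other pools of the fit, and the p-values measure that spread and not the spread between mice. Those pools were grouped as P4 with P5 and P10 with later ages. Their spread therefore also holds any change with age inside a group, which widens it, so few passing genes do not show that few genes changed. By size alone, 124 genes (1.08%) were at least 2-fold higher than at both P4 and P5 and 177 (1.54%) at least 2-fold lower. For scale, P5 against P4, which is 1 comparison and not 2, put 595 genes (5.19%) at least 2-fold higher and 205 (1.79%) at least 2-fold lower. By the same single comparison, P8 against P5 put 375 genes higher and 762 lower, and P8 against P4 403 higher and 350 lower. The libraries fell into 2 numbering series, each holding an equal number of cells at each age. Within each series taken alone, 20 of the 124 genes and 36 of the 177 (0.174% and 0.314% of all genes) were also at least 2-fold apart from both early ages. The series are parts of the same pools that chose the genes, so these counts are a description and no independent support.

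Rasgrf1, which encodes a calcium-sensitive exchange factor that activates Ras and Rac in neurons, was the gene with the largest consistent difference that was spread over many cells. It lies at chr9:89909908-90026977 (GRCm38) and codes for protein. Its pool means were 15.4 CPM at P4, 8.40 at P5 and 113 at P8, a 9.49-fold higher level than the early mean. The median cell stood at 0 CPM at P4 and at P5 and at 57.8 CPM at P8, and the highest cells at 448, 124 and 784 CPM, so the ages overlapped at the level of cells. Cells at or above 10 CPM made up 7.50% at P4 (exact 95% interval 1.57 to 20.4), 13.2% at P5 (4.41 to 28.1) and 69.4% at P8 (51.9 to 83.7). These intervals cover counting error over cells only. Rasgrf1 rose by 2.84 on the log2 scale (SE 0.35, limma adjusted p = 0.015). In library series 1 the difference was 2.05 against P4 and 2.41 against P5, and in series 2 it was 3.22 and 4.55. Without cells carrying markers of another type the pools stood at 15.8, 7.70 and 85.3 CPM, and the limma adjusted p became 0.165. Without the P5 pool it was 0.186, with the ON-OFF pools alone 0.110, and among cells at or above the median depth 0.444.

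The start region of Rasgrf1 is shown because this gene carried the clearest difference. The sequence is the RefSeq promoter of 250 bases before the start, chr9:89909525-89909774, plus strand of GRCm38.p6. Capitals mark the motif CCAAT, read on either strand.
Rasgrf1: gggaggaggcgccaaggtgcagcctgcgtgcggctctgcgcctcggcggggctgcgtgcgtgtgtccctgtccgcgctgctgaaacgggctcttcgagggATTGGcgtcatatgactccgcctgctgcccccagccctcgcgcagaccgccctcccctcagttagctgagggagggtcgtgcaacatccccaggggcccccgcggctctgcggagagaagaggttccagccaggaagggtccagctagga
It held 1 match to CCAAT, as 34.5% of 27025 promoters of the same length did, and none to TCACNCCAC, which 1.03% of them held. A match is a description of the letters only.

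Spp1, the secreted phosphoprotein osteopontin, was the other gene past the threshold, and its difference came from 1 cell. Its pool means were 0.0388 CPM at P4, 0.123 at P5 and 209.8 at P8 (limma adjusted p = 0.0041). In 1 P8 cell it stood at 7552 CPM, and in the other 35 P8 cells it was listed at 0. That cell also held C1qa, a complement gene of microglia, at 1832 CPM and was the P8 cell that met the rule for microglia markers. With each gene's highest cell left out of each pool, the difference was 0.00.

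**Figure D1:**
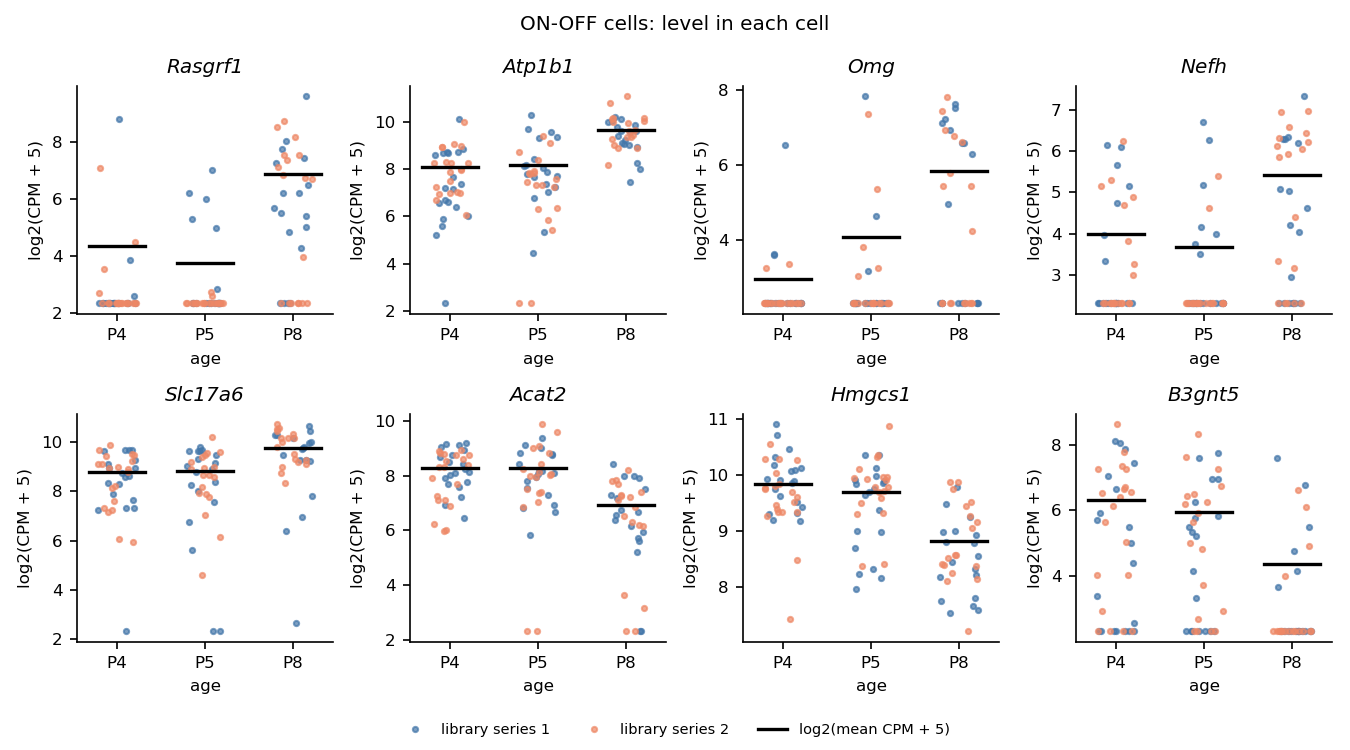
Each point is 1 ON-OFF cell at P4, P5 or P8, drawn as log2(CPM + 5) and coloured by library numbering series. Black bars are log2 of the pool mean CPM plus 5, and 69.4% of P8 cells lay at or above 10 CPM for Rasgrf1 against 7.50% at P4.

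The other genes named as highest at P8 relative to both early ages did not pass the test (limma adjusted p from 0.101 upward), and their values are a description of genes picked for their size. Atp1b1, the beta subunit of the sodium-potassium pump, stood at 268 CPM at P4, 280 at P5 and 801 at P8, a log2 difference of 1.53 (SE 0.23, limma adjusted p = 0.101). The median cell was at 188, 212 and 760 CPM, and the lowest P8 cell, at 172 CPM, lay near the early medians. Nefh, the heavy neurofilament subunit of large axons, was at 11.1, 7.89 and 37.8 CPM, and its share of cells at 10 CPM was 27.5%, 18.4% and 58.3%. Omg, the oligodendrocyte-myelin glycoprotein, which neurons also make and which limits neurite outgrowth, was at 2.81, 12.1 and 52.8 CPM and reached 10 CPM in 2.5%, 10.5% and 50% of cells. The deposited interval of Omg spans the surrounding gene, so fragments of overlapping transcripts cannot be told apart there.

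Tnr (tenascin-R, a matrix protein of perineuronal nets) was at 5.93, 11.3 and 36.4 CPM. Lynx1, a membrane-tethered modulator that damps nicotinic acetylcholine receptors, was at 37.7, 42.2 and 128 CPM, and its median cell at 6.5, 0 and 116 CPM. Tac1, the substance P precursor, had pool means of 59.6, 66.9 and 194 CPM while its share of cells did not increase, at 52.5%, 44.7% and 44.4%. A few cells with high Tac1, up to 2882 CPM, held that P8 mean. Ctsd, a lysosomal protease, was at 185, 175 and 530 CPM, but the P8 cell with microglia markers alone held 13740.3 CPM. Without cells carrying markers of another type Ctsd stood at 107, 147 and 143 CPM, so P8 lay below P5. The remaining genes of the 15 were Taf9b, Lgals1, Rhof, Atp5s, Cap2, Srxn1 and Bhlhe41, with log2 differences between 1.33 and 2.06. The last of them, Bhlhe41, was 1.29 above the nearer early age on the log2 scale, and the next gene, Fam184b, 1.26.

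In the other direction 0 of the 15 named genes passed (limma adjusted p from 0.740 to 0.877). Draxin, a secreted inhibitor of Wnt signalling and axon guidance cue, was at 32.2 CPM at P4, 36.1 at P5 and 5.51 at P8, with 42.5%, 42.1% and 13.9% of cells at 10 CPM. Sema6d, a transmembrane semaphorin, was at 27.8, 26.3 and 5.96 CPM. B3gnt5, the enzyme that starts lacto-series glycolipids, was at 75.5, 57 and 15.8 CPM, and the share of cells at 10 CPM was 65%, 60.5% and 25%. Ezh2, the histone H3 lysine methyltransferase of the Polycomb complex, was at 24.3, 37.8 and 4.41 CPM. Dchs1, a large protocadherin that binds Fat4, was at 48.9, 68.9 and 14.4 CPM.

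Fxyd6, a regulator of the sodium-potassium pump, was at 223, 222 and 79.9 CPM and was present at 10 CPM in 100% of P4 cells, 92.1% of P5 cells and 58.3% of P8 cells. Ctdsp2, a small phosphatase gene, was at 12.1, 28.7 and 0.452 CPM, and 1 P8 cell reached 10 CPM. Slc1a2, the glial-type glutamate transporter, was at 26.5, 31.7 and 7.28 CPM. Without cells carrying markers of another type Slc1a2 stood at 27.2, 16.1 and 7.94 CPM. In ON cells it was higher at P8, by 0.92 and 1.52 on the log2 scale in those labelled up and down. The other named genes were Pcdhb21, Kcp, Chtf8, Sept9, Tbc1d14, Dolk and Mtmr11, with log2 differences between -1.94 and -1.46. Pcdhb21 belongs to a cluster of similar protocadherin genes. Its deposited interval, chr18:36930184-37841873, reaches far beyond the gene itself at 37513621-37518325, so its level is uncertain. The last of the 15, Mtmr11, was 1.36 below the nearer early age on the log2 scale, and the next, Zswim4, 1.35.

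**Figure D2:**
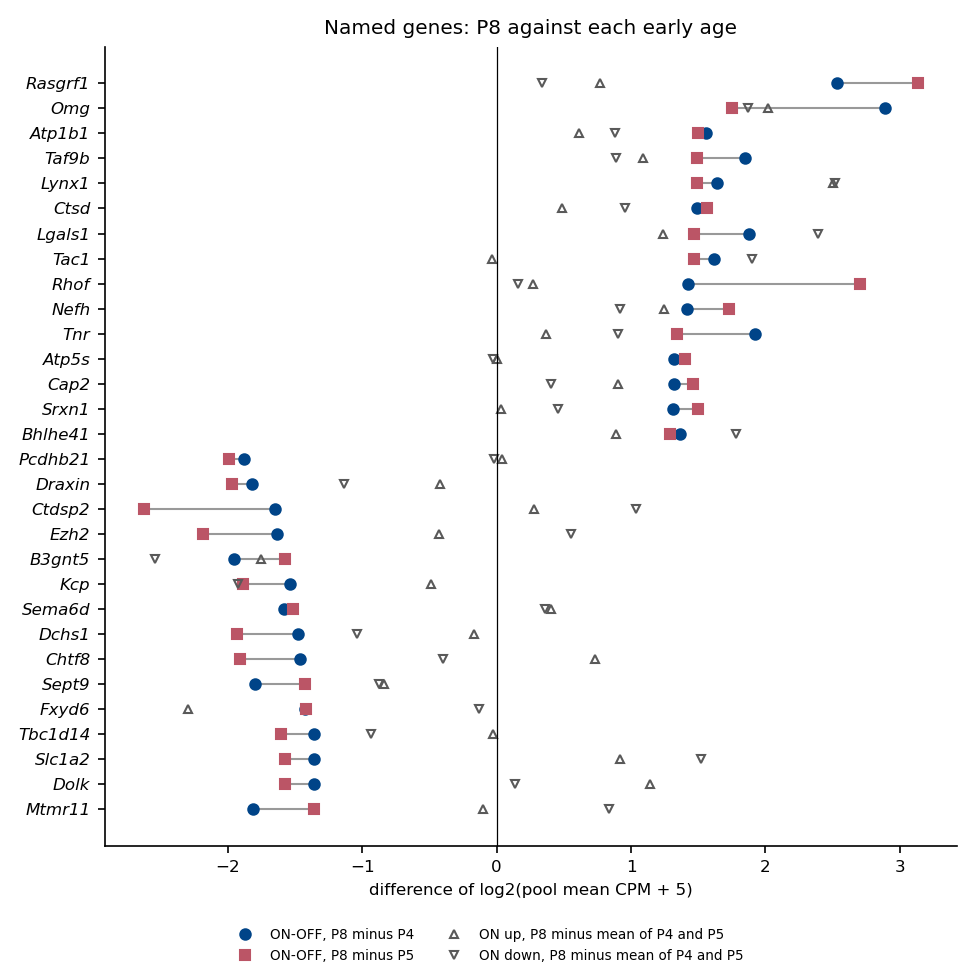
The 15 named genes in each direction, with the ON-OFF difference of log2(pool mean CPM + 5) of P8 against P4 (circles) and against P5 (squares). Open triangles give the change in ON cells labelled up and down. That change was not used to choose the genes, though the ON pools entered the spread of the fit.

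Lists of genes with a shared role were then read by counts, against 31.8% of all genes tested that were higher at P8 than at both early ages and 37.2% that were lower than at both. The median log2 difference of all genes was -0.03. Because the lists were drawn up with results of these data known, they were given no test of their own. Apart from Spp1, no member of any list had an adjusted p under 0.05. Where members with an unadjusted p under 0.05 are named below, they were picked for their values.

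Of 21 tested genes of GABA and glycine receptors and their chloride transporters, 14 were higher than at both early ages and 2 lower, with a median log2 difference of 0.54. Slc12a5 encodes KCC2, the transporter that lowers chloride and so makes GABA inhibitory, and it was at 43.8 CPM at P4, 108 at P5 and 139 at P8. Gabra4, a subunit of extrasynaptic receptors, was at 27.5, 20.9 and 61 CPM. Glrb, the glycine receptor subunit that binds gephyrin, was at 71.8, 61.8 and 126 CPM. Gabbr1 and Gabbr2, the GABA-B receptor subunits, took many of the list's fragments and had log2 differences of -0.06 (SE 0.28) and 0.15 (SE 0.25). The list's median stayed between 0.34 and 0.63 over 20 alternative settings. In ON cells the same list had a median of 0.15, and 10 of its 21 genes were higher and 4 lower in both directions' pools.

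Genes of excitatory transmission gave smaller medians. Of 43 glutamate receptor genes and partners, 18 were higher and 9 lower (median 0.09). Grin1, the obligate NMDA receptor subunit, was at 37.2, 40.4 and 71.8 CPM, and Cacng5, an AMPA receptor partner, at 193, 168 and 345 CPM. Of 11 acetylcholine receptor genes and modulators 4 were higher and 3 lower. The subunits Chrna3, Chrna6, Chrnb2 and Chrnb3 had log2 differences of 0.17, 0.29, 0.12 and 0.00, each within 1 SE. Chrna4 and Chrnb4 were lower than at both early ages, with log2 differences of -0.98 and -1.14. Lynx1, described above, had the largest difference of this list.

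Of 38 synaptic vesicle genes 16 were higher and 10 lower (median 0.11), with 5 higher at an unadjusted p under 0.05 and 0 lower. Slc17a6 was at 435, 452 and 871 CPM, a log2 difference of 0.97 (SE 0.25, limma adjusted p = 0.740), and its median cell at 437, 457 and 874 CPM. Snap25, of the release machinery, was at 2844, 2404 and 4673 CPM. Its lowest P8 cell, at 1670 CPM, was above the lowest early cells, at 824 and 895 CPM, but the ages overlapped. Syn2, Sv2c and Dnm1, genes of the vesicle cycle, were higher too, at 142, 115 and 93.1 CPM at P8.

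Of 13 sodium channel genes and nodal partners 8 were higher and 3 lower (median 0.25). The auxiliary subunit Scn2b was at 50.6, 64 and 113 CPM. Scn9a, which encodes the pore-forming subunit NaV1.7, was lower, at 180, 199.9 and 105 CPM. Among 37 potassium channel genes 19 were higher and 8 lower (median 0.25). Kcna2, a channel of the axon near nodes, was at 59.3, 88.2 and 138 CPM, and Kcnip4, a partner of A-type channels, at 46.6, 65.1 and 139 CPM. Over the 23 calcium, HCN and TRP channel genes as a whole, 10 were higher and 9 lower, and their median of -0.04 changed sign in 8 of 20 settings. In ON cells 7 of the sodium channel genes were higher and 4 lower in both directions' pools (median 0.09), and 11 of the potassium channel genes were higher and 11 lower (median 0.03).

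Energy genes had small differences, mostly of 1 sign, and none passed the test. At an unadjusted p under 0.05, 1 of 46 oxidative phosphorylation genes and 4 of 25 glycolysis genes were higher and 0 lower. Of 46 nuclear genes of oxidative phosphorylation 36 were higher and 3 lower, with a median of 0.25 and a range from -0.12 to 0.66. Of 25 glycolysis genes 20 were higher and 3 lower (median 0.34). Aldoa, the aldolase of neurons and muscle, was at 946, 913 and 1828 CPM, and Eno2, the neuronal enolase, at 122, 112 and 226 CPM. Atp5g1, a subunit of the ATP synthase rotor, was at 223, 199 and 323 CPM. In ON cells 40 of the 46 and 20 of the 25 were higher at P8 in both directions' pools, beside 27.2% of all genes. Ribosomal protein genes lay on the other side of 0, with 1 of 48 higher, 22 lower, 25 mixed and a median of -0.13, which changed sign in 1 of 20 settings. Their list summed to 7658 CPM at P4, 6024 at P5 and 6069 at P8, so P8 lay near P5.

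Cholesterol synthesis had the lowest median of the 26 lists of neuronal and cellular roles, the marker lists of other cell types aside. Neurons make their own cholesterol while they build membrane and later rely more on glia. Of 24 genes 20 were lower than at both early ages and 2 higher, with a median of -0.50 that stayed between -0.58 and -0.39 over 20 settings. Hmgcs1, the synthase at the head of the pathway, was at 909.8 CPM at P4, 824 at P5 and 447 at P8 (log2 difference -0.95, SE 0.29, limma adjusted p = 0.740). Its median cell was at 862, 865 and 372 CPM. Acat2, which makes the acetoacetyl-CoA that Hmgcs1 uses, was at 302, 303 and 118 CPM (log2 difference -1.32, SE 0.27, limma adjusted p = 0.629), and its highest cells were at 574, 938 and 335 CPM. Fdps, Sqle, Cyp51 and Dhcr7, enzymes further down the pathway, had log2 differences of -0.72, -0.77, -0.73 and -1.07. ON cells had a median of -0.54 for the list, and 17 of its 24 genes were lower in both directions' pools against 0 higher.

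The promoters of 3 of these enzymes are shown as examples of the start regions of the list. Msmo1 itself differed little, at 148, 130 and 125 CPM (log2 difference -0.15, SE 0.35). Each runs 250 bases up to the RefSeq start on GRCm38.p6: Hmgcs1 at chr13:119690101-119690350 (plus strand), Msmo1, the sterol methyl oxidase, at chr8:64733579-64733828 (minus strand) and Cyp51, the lanosterol demethylase, at chr5:4104698-4104947 (minus strand). Capitals mark CCAAT and TCACNCCAC, the latter a spelling of the sterol regulatory element, each read on both strands, and no 2 matches overlapped.
Hmgcs1: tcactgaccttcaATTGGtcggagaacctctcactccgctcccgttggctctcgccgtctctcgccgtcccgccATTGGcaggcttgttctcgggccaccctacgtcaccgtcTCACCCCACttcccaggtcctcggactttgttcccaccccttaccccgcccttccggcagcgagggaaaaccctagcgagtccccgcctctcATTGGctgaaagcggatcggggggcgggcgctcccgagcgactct
Msmo1: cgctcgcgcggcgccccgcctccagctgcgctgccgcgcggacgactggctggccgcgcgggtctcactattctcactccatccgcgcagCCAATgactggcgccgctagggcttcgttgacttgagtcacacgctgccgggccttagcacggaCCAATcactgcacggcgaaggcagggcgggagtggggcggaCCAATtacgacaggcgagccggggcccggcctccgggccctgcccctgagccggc
Cyp51: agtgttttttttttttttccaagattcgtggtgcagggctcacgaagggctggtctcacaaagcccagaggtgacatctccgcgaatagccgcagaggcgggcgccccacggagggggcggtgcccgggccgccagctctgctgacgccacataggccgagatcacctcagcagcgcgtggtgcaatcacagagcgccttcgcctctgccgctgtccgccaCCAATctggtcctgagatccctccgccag
Of the 24 genes, 17 had a promoter in the RefSeq table. CCAAT was found in 15 of the 17 (88.2%), against 34.5% of 27025 promoters of the same length, and TCACNCCAC in 1, that of Hmgcs1, against 1.03%. CCAAT occurred 3 times in the Hmgcs1 promoter, 3 times in that of Msmo1 and 1 time in that of Cyp51.

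Genes of young, growing neurons were mostly lower at P8. Of 32 such genes 21 were lower and 4 higher, with a median of -0.39. Tubb3, the neuronal tubulin, was at 1167, 1499 and 810 CPM (log2 difference -0.70, SE 0.28), and Tuba1a, the tubulin alpha chain of growing neurites, at 7003, 7021 and 4923 CPM. Tubb5 and Dpysl3, the latter a collapsin response mediator, took many of the list's fragments and had log2 differences of -0.34 (SE 0.32) and -0.30 (SE 0.41). In ON cells 26 of the 32 were lower in both directions' pools.

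Of 40 axon guidance genes 20 were lower and 11 higher (median -0.29). Neo1, a receptor for netrins and repulsive guidance molecules, was at 84.6, 81.1 and 32.7 CPM. The netrin receptor Unc5c was at 56.4, 59.2 and 25.3 CPM, and the plexins Plxnc1 and Plxna3 were at 101, 118 and 51 CPM and at 79.3, 97.4 and 44 CPM. The midline repellent Slit2 went the other way, at 61.4, 49.4 and 94.8 CPM. Its receptor Robo2 had a log2 difference of 0.06 (SE 0.30). Draxin belongs to this list and to that of growing neurons, so it was counted in each.

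Of 64 neural transcription factor genes 33 were lower and 12 higher (median -0.22). Pou4f1 (Brn3a), a ganglion cell factor, was at 793, 945 and 769 CPM and present in 100% of cells at each age. Zfhx4, a large homeodomain factor, was at 109, 105 and 40.3 CPM, and Foxp2, a forkhead factor, at 49.8, 69.2 and 23.3 CPM. Neurod1 was at 44, 88.7 and 23.6 CPM, and Ebf1 at 462, 391 and 263 CPM. Klf9, a factor induced by thyroid and steroid hormones, was higher, at 10.5, 18.6 and 36.4 CPM. It was higher in ON cells too, by 1.73 and 1.91 on the log2 scale in those labelled up and down.

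Of 17 tested markers of direction-selective ganglion cells, not all of them of the ON-OFF kind, 8 were higher and 4 lower (median 0.16). Cartpt was at 238, 102 and 495 CPM, a log2 difference of 1.63 (SE 0.60, limma adjusted p = 0.740), and P4 and P5 themselves were far apart. Calb2 was at 1567, 1722 and 2325 CPM. Fstl4 (127, 211 and 101 CPM) and Mmp17 (7.37, 5.79 and 5.32 CPM), used as markers of subtypes that prefer particular directions, had log2 differences of -0.68 (SE 0.47) and -0.16 (SE 0.44). Of 19 neuropeptide genes 10 were higher and 1 lower. Scg2, a granin of secretory vesicles, was at 194, 138 and 351 CPM, and Adcyap1, the gene of the peptide PACAP, at 30.3, 44.8 and 75.3 CPM. Npy was lower, at 241, 86.4 and 55.7 CPM, in at most 13.2% of cells at any age.

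**Figure D3:**
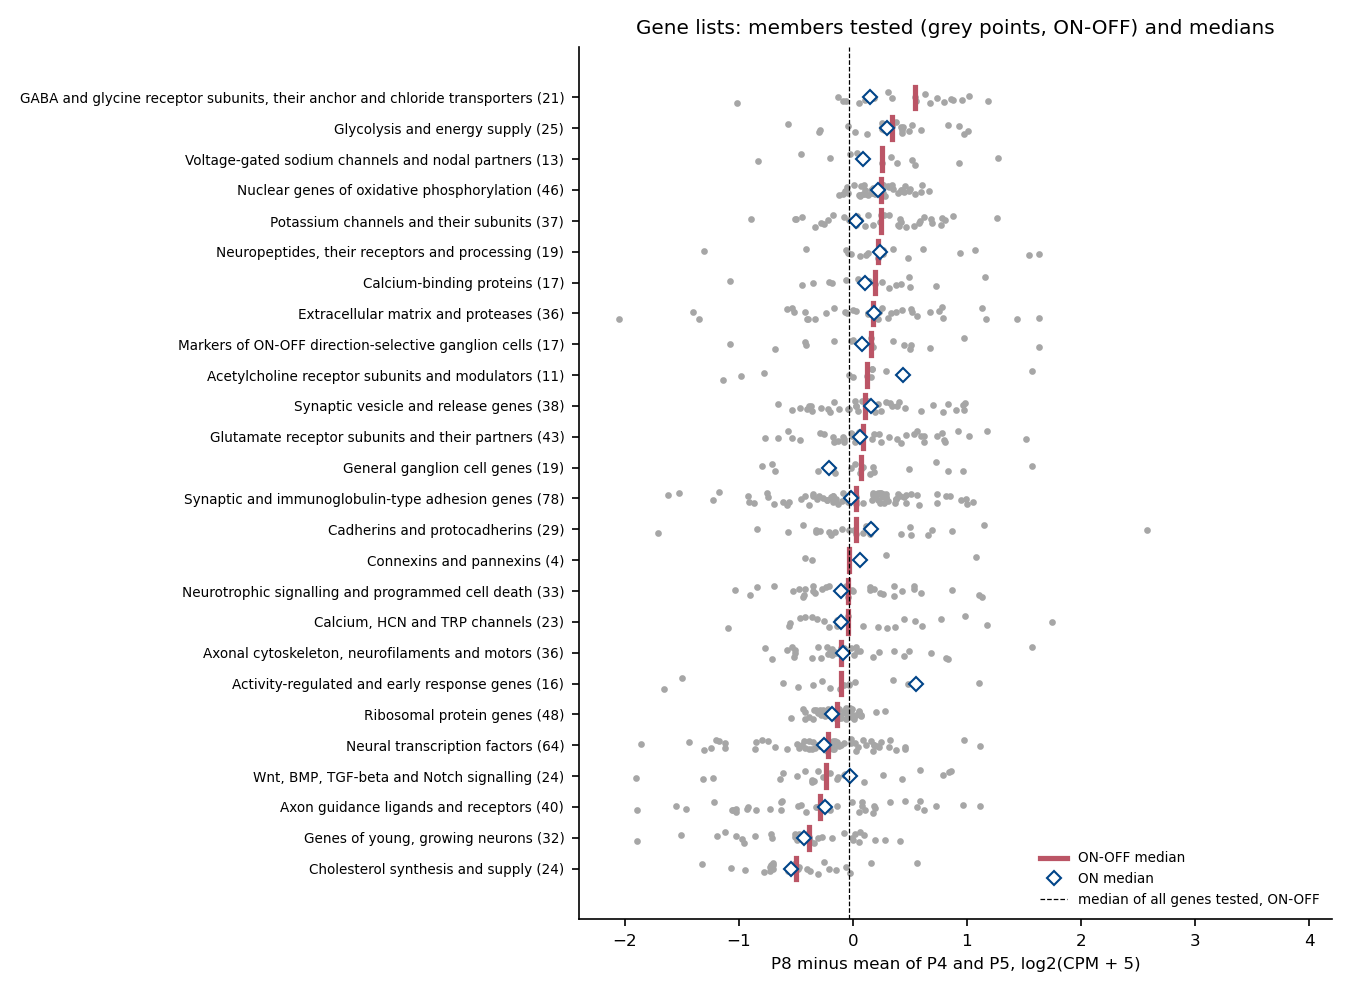
Grey points are the tested members of each list in ON-OFF cells, as the difference between P8 and the mean of P4 and P5 on log2(CPM + 5), with the number of members in brackets. Red bars are the ON-OFF medians, diamonds the ON medians, and the dashed line the median of all 11470 genes. Over the 26 lists drawn, which leave out the marker lists of other cell types, the medians run from -0.50 for cholesterol genes to 0.54 for GABA and glycine receptor genes.

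Microglia markers were higher in the P8 pool, where 1 cell held most of them: summed over the list, the pools stood at 601, 152 and 803 CPM, and that P8 cell at 27788 CPM. Of the 12 tested, 8 were higher than at both early ages and 0 lower, with a median of 1.29. Progenitor and cell cycle genes had a median of -1.19 over 8 tested, with 1 higher and 3 lower than at both early ages. Their list summed to 76.8, 292 and 107 CPM, so the P8 pool lay between P4 and P5. Markers of Müller glia had a median of -0.52 over 8, with 3 higher and 4 lower. Their list summed to 315, 424 and 432 CPM, with the highest P8 cell at 7933 CPM. The part of these markers in the differences of neuronal genes was not tested, beyond the values given without such cells.

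ON cells, sorted from another line, were set beside these differences. Their pools entered the spread of the limma fit and so its p-values, but their own change chose none of the 2-fold genes. Of the 124 genes at least 2-fold higher in ON-OFF cells, 68 (54.8%) were also higher in both the up and the down ON pools, against 27.2% of all genes. Of the 177 lower genes, 74 (41.8%) were lower in both, against 30.0%. Of the named genes, 13 of the 15 higher ones and 7 of the 15 lower ones kept their sign in both ON directions. By the rule for markers of another type, 8 of 28 up and 9 of 31 down ON cells at P8 carried rod markers. At P4 and P5 it was 0 of 24 and 2 of 41 up cells, and 0 of 23 and 0 of 40 down cells. The part of these cells in the ON values was not tested. In ON cells alone 0 genes passed in limma, with 245 higher (2.14%) and 157 lower (1.37%) at an unadjusted p under 0.05, and for the mean change of both lines the smallest limma adjusted p was 0.061.

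No gene passed the test of whether the change itself differed between ON-OFF and ON cells (limma, 0 of 11470). At an unadjusted p under 0.05, the change was higher in ON-OFF cells for 98 genes (0.854%) and lower for 201 (1.75%). Rasgrf1 changed by 2.28 more in ON-OFF cells on the log2 scale (SE 0.49, limma adjusted p = 0.984). It was already at 151 and 130 CPM at P4 and P5 in ON cells labelled up and at 188 and 110 CPM in those labelled down. Egr1 and Ier2, early response genes, were lower at P8 in ON-OFF cells (log2 differences -1.65 and -1.50) and higher in ON cells (2.52 and 2.28). Their limma adjusted p for the difference was 0.9998 and 0.805, and both were named after their values were seen. Of the 16 activity-regulated genes tested, 4 were higher and 4 lower in ON-OFF cells (median -0.10), and Bdnf, a neurotrophin gene, stood at 12.1, 10.6 and 30.2 CPM. In ON cells the list had a median of 0.55, with 10 genes higher and 2 lower in both directions' pools. Rod markers differed between the lines as well: their 8 tested genes had a median log2 difference of 0.05 in ON-OFF cells and 3.31 in ON cells, and their part in the comparison of lines was not tested.

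The later ON-OFF pools, which entered the fit only through the spread, gave the further course. Rasgrf1 stood at 227 CPM at P10, 184 at P12 and 278 at P14, so its P8 level lay between the early and the later pools. Atp1b1 went on to 1493, 1572 and 2050 CPM, and Omg to 142, 142 and 133 CPM. Slc17a6 was at 1002, 1380 and 961 CPM. On the other side, Acat2 was at 120, 100.5 and 84.2 CPM and Hmgcs1 at 415, 466 and 270 CPM, near their P8 levels, while B3gnt5 was at 6.14, 1.09 and 1.94 CPM. Not every named gene held its P8 level. Sema6d was at 18.1, 14.9 and 16.5 CPM and Dolk at 36.5, 21.3 and 31.6 CPM, against 5.96 and 10.2 CPM at P8. Of the higher genes, Rhof was at 25.4, 17.1 and 49.5 CPM and Tac1 at 104, 116 and 193 CPM, against 42.9 and 194 CPM at P8.

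**Figure D4:**
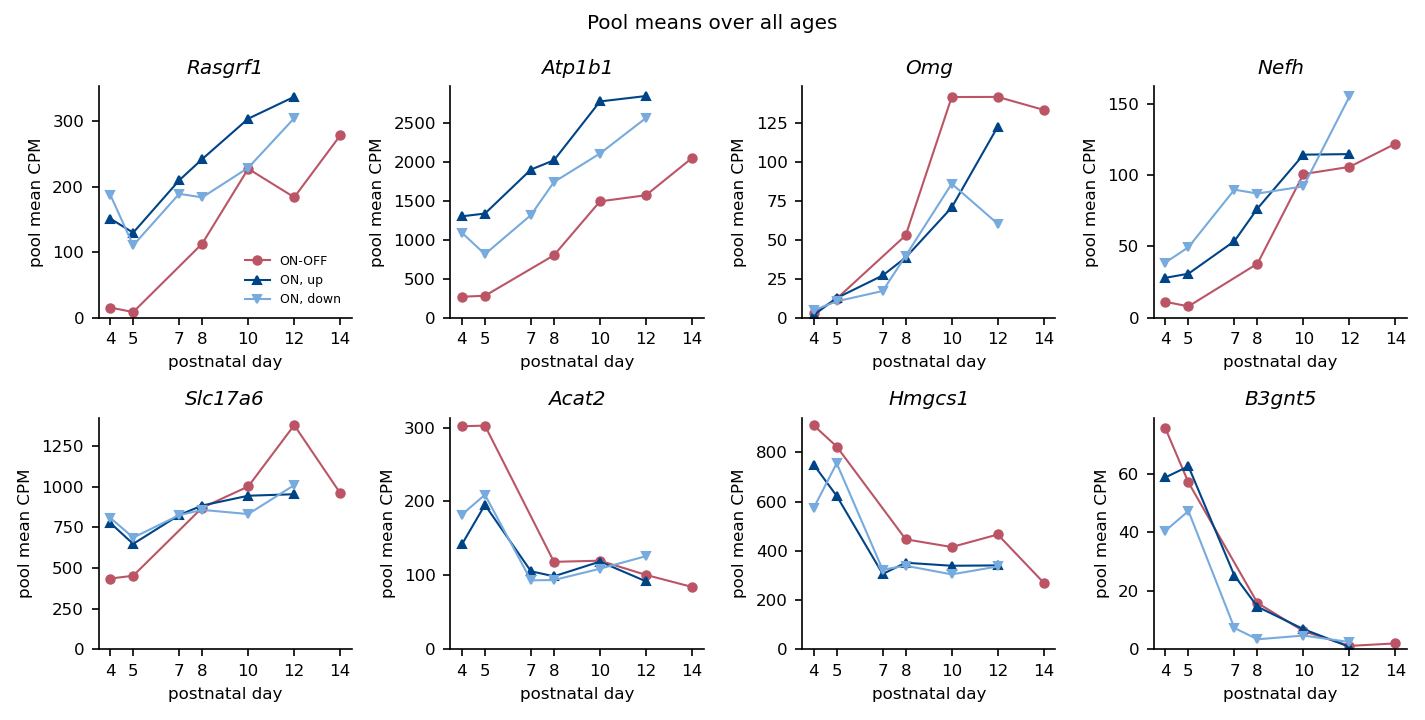
Pool mean CPM at each age for ON-OFF cells (circles) and for ON cells labelled up and down (triangles), 1 point per pool and no error bars because a pool is 1 unit. In ON-OFF cells Rasgrf1 went from 8.40 CPM at P5 to 113 at P8 and 278 at P14, and Acat2 from 303 to 118 and 84.2 CPM.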

How the data were processed

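Single cells were libraries of their own, made with Smart-seq2. Per the submitters' processing notes, the tools were HISAT2 2.1.0, SAMtools 1.3.1, Cufflinks 2.2.1 with Cuffnorm and R 3.5.1, with GRCm38.p6 (mm10). The deposited gene table holds a normalized signal, fragments per gene divided by a size factor. The size factor, a ratio of each cell to a common scale, is the authors' own, per the file headers. Multiplying by it brought 96.2% of nonzero entries to within 0.05 of whole fragments, not all, so no count model was used. The authors' FPKM table served as an alternative. The files held 53374 gene rows, 101 of them with a repeated symbol, and 0 columns without a sample.

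Each cell was scaled to CPM and averaged within line and age. The value log2(pool mean CPM + 5) was fitted with limma 3.58.1 (trend, robust) in R 4.3.3, over 6 ON-OFF pools and 5 ON units (up and down averaged), with terms for line by age window (P4-P5, P8, P10 and later) and 5 residual degrees of freedom. The script was tested on simulated data. Intervals on shares of cells are Clopper-Pearson. Alternatives changed the pseudocount, filter, scaling, unit, averaging, samples, cells and library series.

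The named genes were, in each direction, the 15 with the largest smaller difference against P4 or P5, among genes with 1 sign that reached 10 CPM in 25% of cells of P8 or of both early ages. Predicted and mitochondrial genes were left out. Some members of the lists are not reported here by name. Too few passed the test, so the next largest were added. Mnx1, Cartpt, Calb2, Fstl4 and Mmp17 were always named. In described lists, members highest in level and, after their values were seen, members of low p were named. The members and lists were chosen with earlier results of these data known. Of 36 named genes, 34 had an ID in GENCODE M21, and 22 had the same coordinates there as deposited; the rest of the deposited intervals can span neighbouring genes.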

Additional observations from a re-analysis of the deposited data

How the results depend on the processing

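P8 was a single pool. No paired analysis was possible because the labels' replicate numbers only count cells within a group and the pools share none; the 2 library series, parts of each pool, were each fitted alone. Genes called higher and lower (2 and 0) became 373 and 41 with no filter on low values. The count higher was 1 with a pseudocount of 20 CPM, with log2 values averaged over cells, with ON-OFF pools only, in library series 1, in series 2 and, as added after seeing the data, without each gene's highest cell. It was 0 without cells carrying other-type markers, for cells at or above the median depth, and for the mean change of both lines (also added). Leaving out P4 or P5 gave 0 to 3 higher and 0 to 2 lower.

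Genes 2-fold higher (124) and lower (177) were 231 and 430 with a pseudocount of 1, 18 and 11 with 20, 60 and 65 above a filter of 20 CPM, 79 and 60 with averaged log2 values, 224 and 396 in deeper cells, 303 and 406 in series 1, and 314 and 487 in series 2. FPKM gave 340 lower. Leaving out P4 or P5, with only 1 age left to differ from, gave 375 to 403 higher and 350 to 762 lower. ON cells (0 called) gave 2 with a pseudocount of 20, 265 unfiltered, 4 with FPKM, 32 with up and down pools as separate units and 9 with 3 ages only. The difference between lines (0) gave 438 unfiltered, 1 with a pseudocount of 20, and 1 with ON P7 joined to P8; leaving out P4 or P5 gave 0 to 1. The cause of these shifts was not tested, except that thresholds and fewer cells or ages act by construction.

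Rasgrf1 passed in 13 of 20 settings, with log2 differences from 2.07 to 3.89 and adjusted p from 0.0033 to 0.444. Atp1b1 passed in 5, among them no filter (0.015) and averaged log2 values (0.018). Over 742 values of the 36 named genes, 6 changed sign or fell to 0. Those that changed sign were Ctsd in series 2 (-0.84), Fstl4 with averaged log2 values (0.22), Mmp17 in series 2 (0.72) and for both lines (0.15), and Mnx1 in deeper cells (-0.081). Spp1 without its highest cells fell to 0.00. Of 26 list medians, 15 kept their sign in all 20 settings. Median-ratio scaling moved the median of all genes from -0.03 to 0.02.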

Other observations

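Cell adhesion and matrix genes, whose lists were not described above, held some of the larger differences. Of 29 cadherin and protocadherin genes 8 were higher at P8 than at both early ages and 7 lower. Their median of 0.03 ran from -0.31 to 0.50 over 20 settings and changed sign in 4. Cdh13 (T-cadherin) was at 82.5 CPM at P4, 181 at P5 and 278 at P8, and Pcdh10 at 194, 165 and 332 CPM. Cdh8 was at 5.48, 4.38 and 54.3 CPM, but reached 10 CPM in only 5%, 5.26% and 13.9% of cells. Of 36 matrix and protease genes 17 were higher and 11 lower, with a median of 0.18 that ran from 0.01 to 0.25. Spock3, a testican proteoglycan, was at 57.1, 75.1 and 186 CPM, in 55%, 50% and 88.9% of cells, and Sparcl1 (hevin) at 111, 75.8 and 213 CPM. Vcan (versican) was at 31.6, 18.8 and 2.11 CPM. None of these passed the limma test in ON-OFF cells (adjusted p from 0.672 to 0.777), and they were named after their values were seen.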
